A study of Camponotus floridanus with 15 samples.

Results

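Larvae were compared with adults of the carpenter ant *Camponotus floridanus* in 7 of the 15 whole-body poly(A) RNA libraries of a developmental series. The 4 larval libraries were 2 of instar 1 larva and 2 of instar 4 larva, and the 3 adult libraries were 2 of minor (the small worker caste) and 1 of male, chosen by their labels. All groups were whole bodies of animals reared in the laboratory on the same diet, with no treatment. The labels give neither the sex or caste of the larvae nor the age of the adults. They also do not state the colonies or animals behind each replicate, so the spread that the p-values rest on is that between these libraries and could be technical. The male group had 1 library, so differences from it had no replicate check of their own.

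Ants develop through complete metamorphosis. Larvae are legless, are fed by workers and do nearly all of the growing, while adults no longer grow and have the jointed legs, compound eyes and flight or walking muscles that larvae lack. Males are haploid and winged, and workers are wingless females, so the adult side joins both sexes. Between the stages, larval tissues are broken down in the pupa and adult tissues are built from cells set aside earlier.

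The table lists 18979 genes in RPKM, a read number per gene length and library size, and 0 of its IDs matched a gene of the RefSeq table of this species. Genes are therefore given by ID, no function is stated for any of them, and the labelled stages could not be checked against marker genes. The library totals behind the RPKM, recovered from the steps of low values, ran from 16910000 to 34150000 reads in the 7 libraries. On these totals 3 reads on a gene of 1000 nt corresponded to 0.0879 to 0.177 RPKM. Genes whose length could be recovered in this way held only 12.2% to 23.9% of the totals, or 2599000 to 5521000 reads. The share was lowest in minor replicate 2 (12.2%) and instar 4 larva replicate 1 (12.5%). RPKM totals differed, from 204206 in instar 4 larva replicate 1 to 402812 in instar 1 larva replicate 2. Median ratio factors, which scale each library to the typical gene, were 1.871 and 1.776 in instar 1 larva, 0.495 and 0.946 in instar 4 larva, 1.025 and 0.548 in minor and 1.518 in male. The counts of called genes in each comparison are therefore given on the deposited scale and after dividing by these factors, other counts are on the deposited scale unless stated, and the gene sets described were called in the same direction on both. In whole bodies, fewer cells of a type and less RNA per cell cannot be told apart.

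Larval and adult libraries correlated less with each other than the libraries within either side did. On the values rescaled by the median ratio factors, larval with adult libraries correlated at Pearson r = 0.728 to 0.791 across genes, which are not independent replicates. Instar 1 with instar 4 larva correlated at 0.887 to 0.914, and minor with male at 0.922 and 0.865. On a principal component analysis of the 7 libraries the first component, with 61% of the variance, held the larvae between -57.5 and -47.2 and the adults between 50.5 and 88.8. The second component, with 16.9%, held instar 1 larva at 32.5 and 32.9 and instar 4 larva at -32.4 and -47.5. Male lay at 38.8 on it, and minor at -0.4 and -23.9. Instar 1 larva and male also had the highest median ratio factors of the 7 libraries and the most genes at 1 RPKM or more. These numbered 9727 and 9582 in instar 1 larva and 9518 in male, against 6921 and 8026 in instar 4 larva and 8546 and 6921 in minor. Whether the second component follows stage and sex or these traits of the libraries was not tested.

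Of the 50 genes with the largest mean share of the RPKM total in larvae and the 50 in adults, 22 were on both lists. The 50 larval genes took 31.1% and 35.1% of the total in instar 1 larva and 48.5% and 42.2% in instar 4 larva, against 15.5% and 17.4% in minor and 11.6% in male. The 50 adult genes took 31.8% and 35.2% in minor and 21.2% in male, against 12.3% to 16% in larvae. Of the larval list, 21 genes were called higher in larvae on both scales, 2 lower and 27 neither. Of the adult list, 28 were called lower in larvae, 2 higher and 20 neither. The lists were chosen from the libraries compared, so these counts describe them and test nothing.

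CFLOG000597.1 led every larval library, with 6.87% and 8.25% of the RPKM total in instar 1 larva and 13.95% and 9.16% in instar 4 larva. It also led both embryo libraries, with 2.1% and 2.87%, so its lead was not limited to larvae. No gene took as much of an adult library: CFLOG006752.2 led minor replicate 1 with 2.75%, CFLOG002738.2 led minor replicate 2 with 2.2% and CFLOG001312.1 led male with 1.41%. Of the 7 libraries compared, those of instar 4 larva were the most concentrated, with 48 and 77 genes holding 50% of the total. The pupa libraries, outside the comparison, were more concentrated still, at 21 to 40 genes. Instar 1 larva needed 151 and 105 genes, minor 148 and 104 and male 276. All 3 adult libraries were thus more even than both of instar 4 larva, while minor overlapped with instar 1 larva.

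Between larvae and adults 3172 of 10507 genes (30.2%) were called in the same direction on both scales, 1698 higher in larvae (16.2%) and 1474 lower (14.0%), by limma at an adjusted p under 0.05. Deposited values gave 3376 of 10807 genes called (31.2%), 1886 higher (17.5%) and 1490 lower (13.8%), with the median of all genes 0.2 log2 units above 0. After rescaling the majority turned, with 4558 of 10630 called (42.9%), 2071 higher (19.5%) and 2487 lower (23.4%), and no gene (0) was called in opposite directions on the 2 scales. The share of calls that were higher in larvae was 55.9% deposited and 45.4% rescaled, so which side held more genes is not known. It also changed with single libraries: on both scales together 824 were higher and 1457 lower without instar 1 larva replicate 1, 952 and 1450 without instar 1 larva replicate 2, 865 and 1740 without minor replicate 2, and 2091 and 1115 without male. These fits take the spread from replicates of 1 group. A fit of larvae and adults as 2 groups counted differences between the instars and between minor and male as spread. It gave 406 genes higher and 609 lower on the deposited scale. That fit also left out the embryo and pupa libraries. Leaving these out alone, with 1 term per group kept, gave 1495 genes higher and 1278 lower.

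The median of the genes lower in larvae lay further from 0. Their median log2 difference was -1.47 deposited and -1.67 rescaled, against 1.24 and 1.04 for the genes higher in larvae. A difference of at least 2 log2 units on both scales was seen for 419 of 1474 genes lower in larvae (28.4%) and 210 of 1698 higher (12.4%). At 4 units or more the numbers were 87 and 44, at 6 units 24 and 23, and at 8 units 7 and 12. In every adult library 401 of the genes higher in larvae (23.6%) lay under 1 RPKM, and in every larval library 330 of the genes lower in larvae (22.4%) did. The mean level on the higher side reached 1000 RPKM in 21 larval and 26 adult genes.

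Library by library, all 4 larval libraries lay above all 3 adult libraries on both scales for 490 of 10507 genes (4.66%), and all below for 955 (9.09%). Of these 455 were also called higher and 921 called lower. Taken alone, deposited values did not overlap for 1694 of 10807 genes (15.7%), 617 with larvae above (5.71%) and 1077 with larvae below (9.97%). Rescaled it was 3374 of 10630 (31.7%), 1526 above (14.4%) and 1848 below (17.4%). Single libraries set much of the overlap on the deposited scale: the 1694 became 3332 without instar 4 larva replicate 1, 2563 without minor replicate 2 and 2739 without male. Fewer libraries also overlap less often by construction.

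**Figure D1:**
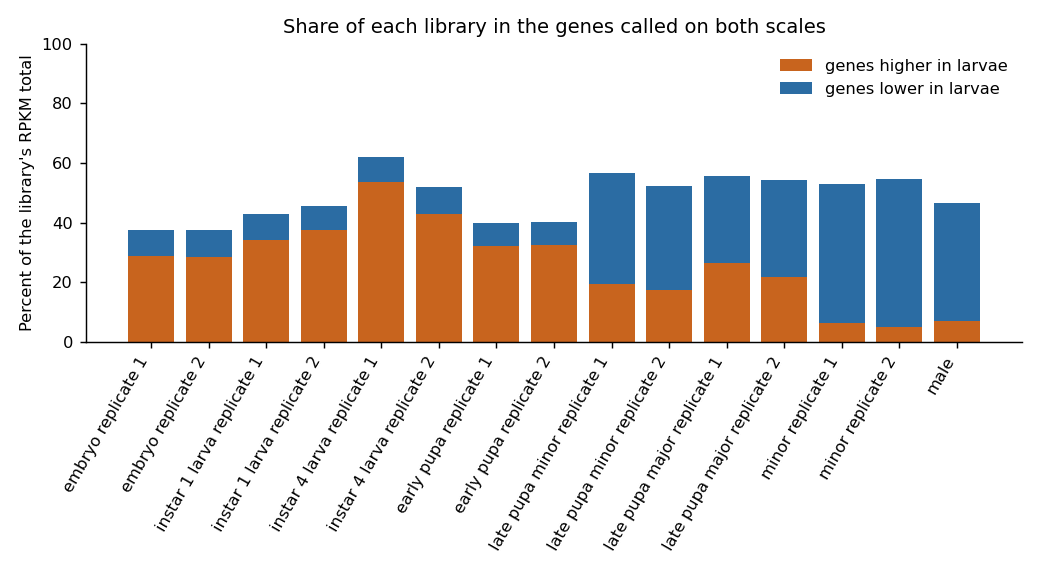
Percent of each library's RPKM total (vertical axis) in the 1698 genes called higher in larvae (orange) and the 1474 called lower (blue) on both scales, for all 15 libraries. Orange falls from 34.1% to 53.7% in larvae to 4.8% to 7% in adults, and blue rises from 7.8% to 9.2% to 39.7% to 49.9%.

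The 1698 genes higher in larvae held 34.1% and 37.6% of the RPKM total in instar 1 larva, 53.7% and 42.9% in instar 4 larva, 6.3% and 4.8% in minor and 7% in male. The 1474 genes lower in larvae held 7.8% to 9.2% of the total in larvae, 46.7% and 49.9% in minor and 39.7% in male. These shares do not depend on the scale of a library, but the genes were chosen from the same 7 libraries. Of the 8 libraries that the comparison did not use, embryo held 28.8% and 28.3% in the genes higher in larvae, early pupa 32.1% and 32.5%, late pupa minor 19.4% and 17.2% and late pupa major 26.4% and 21.6%. The genes lower in larvae held 7.7% to 9.2% in embryo and early pupa and 29.2% to 37.1% in late pupae. By this measure embryo and early pupa lay with the larvae for the adult genes, and late pupae lay between the sides. How far between depended on the genes counted. In the 921 of these genes whose larval and adult libraries did not overlap, late pupae held 12.0% to 13.6%. Larvae held 4.7% to 5.6% in them and adults 28.5% to 34.5%.

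**Figure D2:**
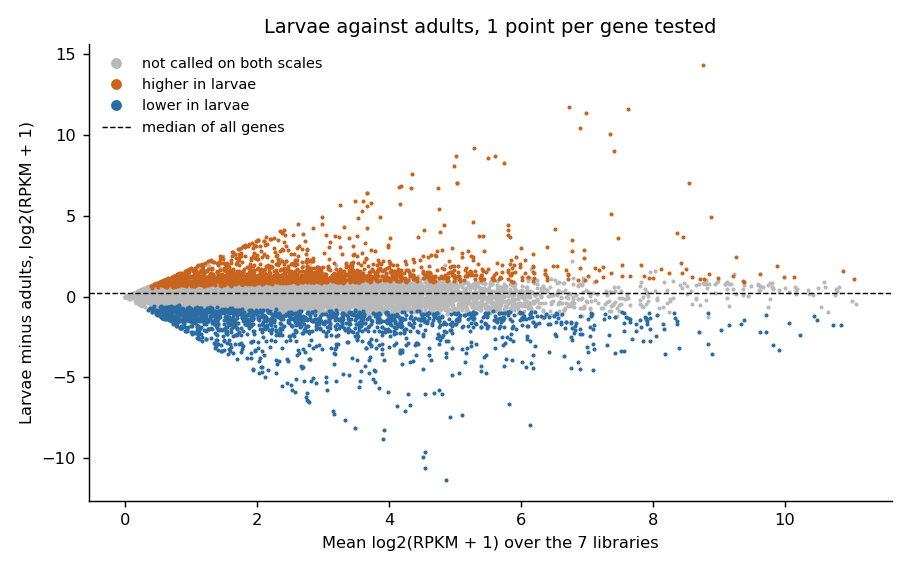
Difference of larvae minus adults on the log2(RPKM + 1) scale (vertical axis) against the mean over the 7 libraries (horizontal axis), 1 point for each of the 10807 genes tested on the deposited scale. Orange genes were called higher and blue genes lower in larvae on both scales, grey genes were not, and the dashed line is the median of all genes at 0.2.

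CFLOG000597.1 had the largest difference of any gene called higher in larvae without overlap. It stood at 27116 and 33251 RPKM in instar 1 larva and at 28477 and 35739 in instar 4 larva, against 0.385 and 0.411 in minor and 0.618 in male. The larval libraries lay close together, at 31146 ± 4037 RPKM (SD, n = 4), and far from the adults at 0.471 ± 0.128 (n = 3). The log2 difference was 14.36 ± 0.65 (SE; limma, adjusted p = 5.2e-13), which is 14.16 above the median of all genes, and 14.17 rescaled. On this scale a level near 0 counts as nearly 1, so differences against such levels are understated and depend on the pseudocount.

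CFLOG002905.1 was next, with 2906 and 4521 RPKM in instar 1 larva and 2537 and 4267 in instar 4 larva, against 0.0842 and 0 in minor and 0 in male. The adult value came from 2 reads in 1 library, so the ratio of pooled reads is known only between 25231 and 752609 (exact Poisson interval at 95%, for counting error only). Its log2 difference was 11.72 ± 0.4 (adjusted p = 9.5e-15), and 11.51 above the median. For CFLOG000597.1 and CFLOG002905.1 the difference between the instars passed no test, with instar 4 minus instar 1 at 0.09 and -0.14 deposited (limma, adjusted p = 0.94 and 0.83) and 1.5 and 1.27 rescaled (adjusted p = 0.47 and 0.22).

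In the other direction CFLOG014540.1 was listed at 0 in all 4 larval libraries and at 2419 and 3153 RPKM in minor and 2316 in male. The mean of 2629 ± 456.6 RPKM (n = 3) in adults was at least 5380-fold higher than 3 reads in the larval library with the highest floor. Its log2 difference was -11.35 ± 0.31 (adjusted p = 2.8e-16), and it was the most abundant of the genes listed in adults but not in larvae. CFLOG007130.2 was also at 0 in all 4 larval libraries, and at 2511 and 1153 RPKM in minor and 1343 in male. Adults, at 1669 ± 735.5 RPKM, were at least 7819-fold above the same floor (log2 difference -10.62 ± 0.51, adjusted p = 9.7e-13). Male minus minor did not pass for either gene, at -0.25 and -0.34 deposited (adjusted p = 0.79 and 0.83) and -1.27 and -1.36 rescaled (adjusted p = 0.057 and 0.3).

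Both genes high in larvae were also present in embryo, CFLOG000597.1 at 7384 and 8093 RPKM and CFLOG002905.1 at 715.8 and 1107. Both were low in pupae: in early pupa CFLOG000597.1 was at 61.7 and 70.4 RPKM and CFLOG002905.1 at 5.48 and 8.26. Whether such small fractions of the larval level are RNA of the pupae or reads carried over from other libraries was not tested. CFLOG014540.1 was at 0 in both early pupa libraries and at 104.3, 78.4, 25.1 and 32.7 RPKM in the late pupae. CFLOG007130.2 was at 15.8 RPKM in late pupa minor replicate 1 and at most at 0.625 in the other pupa libraries.

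CFLOG001312.1, which led male, was present on both sides. It was at 391.9 and 276.8 RPKM in instar 1 larva, 259.2 and 600 in instar 4 larva, 4485 and 2314 in minor and 4443 in male. The groups did not overlap, and the log2 difference was -3.31 ± 0.38 (adjusted p = 8.4e-07). It was already at 1290 to 2278 RPKM in the 4 late pupa libraries.

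**Figure D3:**
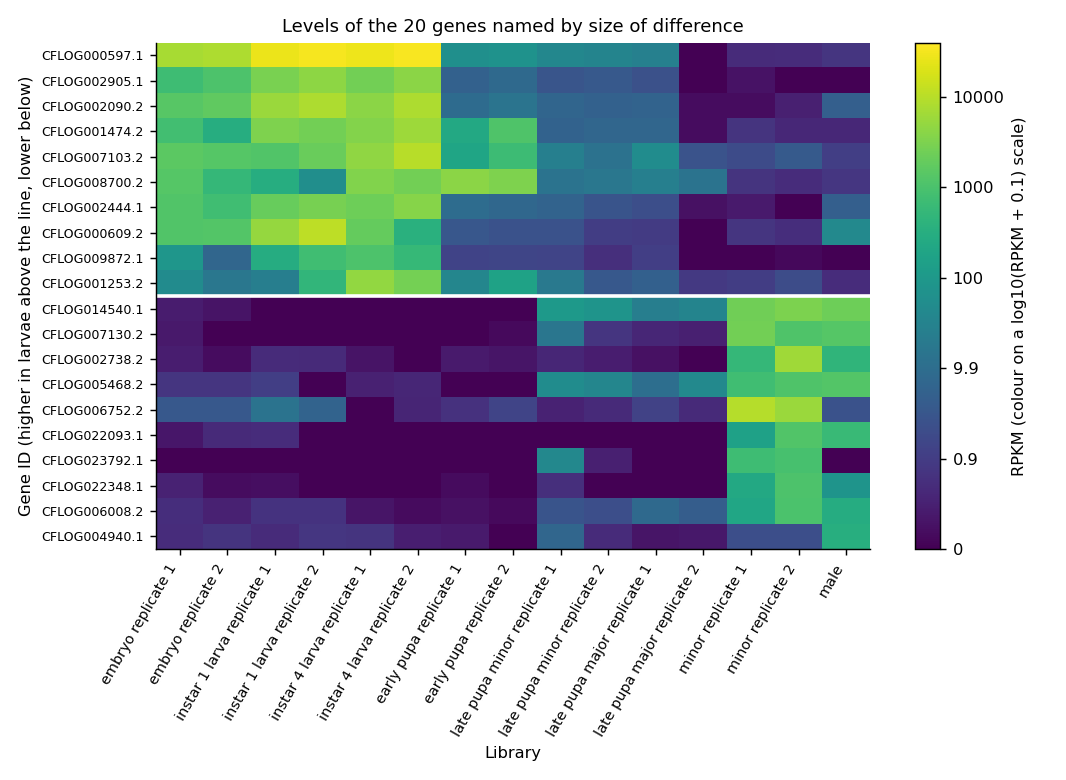
RPKM (colour, on a log10(RPKM + 0.1) scale) of the 20 genes named by the size of their difference (rows) in all 15 libraries (columns), with genes higher in larvae above the white line and genes lower in larvae below it. CFLOG000597.1 reaches 35739 RPKM in larvae and stays under 1 in adults, while CFLOG014540.1 is at 0 in larvae and at 2316 or more in adults.

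Instar 1 and instar 4 larva were each set against the same 3 adult libraries, so these comparisons share their adults. For instar 1 larva 1937 of 10507 genes (18.4%) were higher and 979 (9.32%) lower on both scales. For instar 4 larva 407 (3.87%) were higher and 1757 (16.7%) lower. The deposited scale gave 4365 of 10807 higher (40.4%) and 990 lower (9.16%) for instar 1, and 410 higher (3.79%) and 1950 lower (18.0%) for instar 4, with medians of all genes at 0.69 and -0.31. After rescaling 1937 of 10630 genes were higher (18.2%) and 2345 lower (22.1%) for instar 1, and 1509 higher (14.2%) and 1908 lower (17.9%) for instar 4. The share of calls that were higher became 45.2% and 44.2%, against 81.5% and 17.4% before, so the opposite majorities of the instars were not both present after rescaling. On the deposited scale the genes higher in instar 1 larva numbered 2371 and 2670 without its replicates 1 and 2, and 2626 without minor replicate 2. Those higher in instar 4 larva numbered 723 and 218 without its replicates 1 and 2, and those lower 943 without its replicate 1 and 1256 without male. The submitters' internal codes of the instar 1, minor and male libraries open with one letter and those of instar 4 larva with another, and the sources do not say what the letters stand for. The instar 1 comparison stays within 1 letter, and for instar 4 the letter and the stage cannot be told apart.

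**Figure D4:**
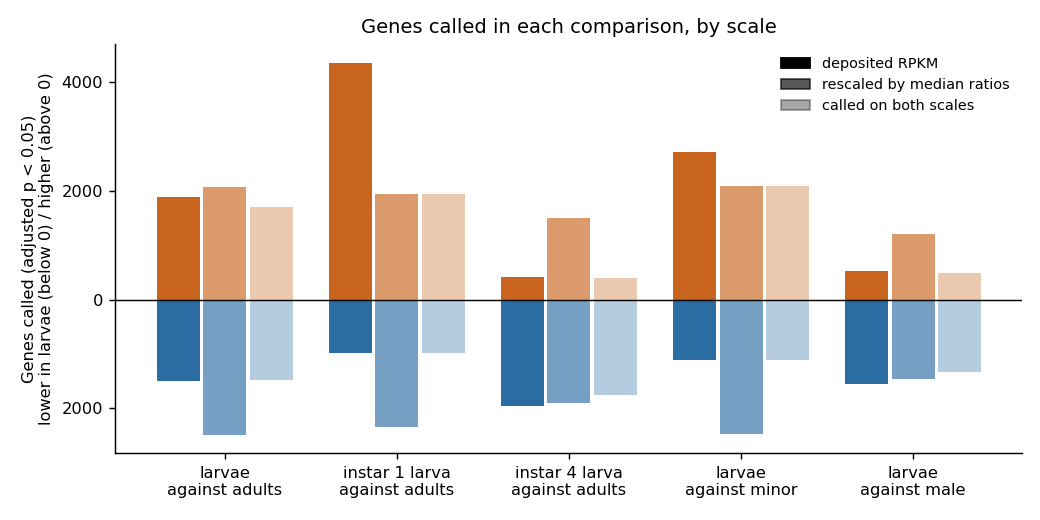
Number of genes called higher (above 0) and lower (below 0) in larvae at an adjusted p under 0.05 (vertical axis) in the 5 comparisons, on the deposited scale, after rescaling by median ratios and on both. On the deposited scale instar 1 larva has 4365 genes higher and 990 lower than adults and instar 4 larva 410 and 1950, and the split is more even after rescaling.

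The further genes named as higher in instar 1 larva were also high in instar 4. CFLOG002090.2 was at 5815 and 8032 RPKM in instar 1 larva, 4193 and 8092 in instar 4 larva, 0.0544 and 0.217 in minor and 4.84 in male. Its difference between instar 1 larva and adults was 11.77 ± 0.57 (adjusted p = 2.9e-12). CFLOG001474.2 was at 3302 and 2588 RPKM in instar 1 larva, 3585 and 6073 in instar 4 larva and 0.315 to 0.591 in adults (11.03 ± 0.69, adjusted p = 1.4e-10). Instar 4 minus instar 1 was -0.23 for CFLOG002090.2 and 0.67 for CFLOG001474.2 (limma, adjusted p = 0.75 and 0.44). Rescaled it was 1.18 and 2.09 (adjusted p = 0.37 and 0.2). Neither gene passed, which does not show equal levels. Of the genes lower in instar 1 larva, CFLOG002738.2 was at 0.39 and 0.367 RPKM there and at 536.2 and 6413 in minor and 457.1 in male (-9.72 ± 0.6, adjusted p = 1.3e-10). The minor libraries were thus far apart for this gene, and its adult mean of 2469 ± 3416 RPKM rests on minor replicate 2. CFLOG005468.2 was at 1.01 and 0 RPKM in instar 1 larva, 0.226 and 0.296 in instar 4 larva, 782 and 1125 in minor and 1285 in male (-9.52 ± 0.48, adjusted p = 5.6e-12).

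Among the genes named for instar 4 larva, CFLOG008700.2 was higher there than in instar 1. It stood at 315.9 and 59.1 RPKM in instar 1 larva, 3444 and 2576 in instar 4 larva, 0.587 and 0.402 in minor and 0.672 in male, with a difference between instar 4 larva and adults of 10.91 ± 0.56 (adjusted p = 5.4e-12). Instar 4 minus instar 1 was 4.43 (adjusted p = 5.1e-05) and 5.83 rescaled (adjusted p = 0.00018). It was as high in early pupa, at 4317 and 3221 RPKM. CFLOG007103.2 was at 4617 and 9765 RPKM in instar 4 larva, 1196 and 2100 in instar 1 larva and 1.01 to 3.66 in adults (11.14 ± 0.76, adjusted p = 3.9e-10). The difference between its instars passed on the deposited scale (2.08, adjusted p = 0.042) and missed the threshold rescaled (3.49, adjusted p = 0.058).

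Both genes named as lower in instar 4 larva were nearly or wholly missing there. CFLOG006752.2 was at 0 and 0.278 RPKM in instar 4 larva, from 3 reads, and at 13.6 and 5.85 in instar 1 larva, 9445 and 5716 in minor and 2.53 in male. Its difference between instar 4 larva and adults (-8.99 ± 0.41, adjusted p = 1.1e-12) rests on minor, since male stood below both instar 1 libraries, and its call was lost with larvae and adults as 2 groups (adjusted p = 0.18). CFLOG022093.1 was at 0 in both instar 4 libraries, at 0.421 and 0 in instar 1 larva, at 158.2 and 1215 in minor and at 621.8 in male (-8.95 ± 0.52, adjusted p = 3.2e-11). Adults were at least 2564-fold above the floor of 3 reads in instar 4 larva. It was at 0 in all 6 pupa libraries.

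Over all genes called between larvae and adults, differences between the instars were more frequent among genes higher in larvae. On both scales 76 of the 1698 genes higher in larvae (4.48%) were higher in instar 4 than in instar 1, and 164 (9.66%) lower. Over all 10507 genes the numbers were 144 (1.37%) and 286 (2.72%). Of the 1474 genes lower in larvae, 31 (2.1%) were higher and 19 (1.29%) lower in instar 4. These calls use the same larval libraries and the same estimate of spread as the comparison with adults.

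The adult side was split in the same way, with the 4 larval libraries shared by both comparisons. Against minor 2091 genes (19.9%) were higher in larvae and 1112 (10.6%) lower on both scales, and against male 486 (4.63%) and 1327 (12.6%). On the deposited scale 2719 (25.2%) were higher and 1116 (10.3%) lower than minor, and 520 (4.81%) higher and 1548 (14.3%) lower than male. The share of calls that were higher in larvae was 70.9% against minor and 25.1% against male, and 45.9% and 45.4% after rescaling, where 2097 genes (19.7%) were higher and 2474 (23.3%) lower than minor and 1217 (11.4%) higher and 1462 (13.8%) lower than male. On the deposited scale the genes higher than minor numbered 1161 and 1320 without instar 1 larva replicates 1 and 2, 4603 without instar 4 larva replicate 1 and 553 without minor replicate 2, and those lower numbered 709 without minor replicate 1. Those higher than male numbered 325 without instar 1 larva replicate 1 and 1046 without instar 4 larva replicate 1. Larvae against male has 1 library on one side, so its smaller number of calls does not show a smaller difference.

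CFLOG002444.1 and CFLOG000609.2 were the genes named as higher than in minor, and male held more of both than either minor library did. CFLOG002444.1 was at 1945 and 2809 RPKM in instar 1 larva, 2301 and 3869 in instar 4 larva, 0.153 and 0 in minor and 4.85 in male (larvae minus minor 11.26 ± 0.46, adjusted p = 1.2e-13). Male minus minor was 2.45 (adjusted p = 0.022), and 1.97 rescaled (adjusted p = 0.05). CFLOG000609.2 was at 5294 and 11071 RPKM in instar 1 larva, 1867 and 353.4 in instar 4 larva, 0.638 and 0.444 in minor and 43.1 in male (10.66 ± 0.53, adjusted p = 2.6e-12). The larval libraries were spread widely for this gene, and instar 4 minus instar 1 was -3.23 (adjusted p = 0.001) but -1.82 rescaled (adjusted p = 0.2).

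Of the genes lower in larvae than in minor, CFLOG023792.1 was a gene of minor among these libraries. It was listed at 0 in all 4 larval libraries and in male, and at 736.9 and 932.3 RPKM in minor (-9.7 ± 0.75, adjusted p = 2.5e-09). Late pupa minor replicate 1 held 41.8 RPKM of it and replicate 2 0.207, and late pupa major 0 in both libraries. CFLOG022348.1 was at 0.0583 RPKM, 1 read, in instar 1 larva replicate 1, at 0 in the other larvae, at 242.8 and 1077 in minor and at 80.9 in male (-8.98 ± 0.41, adjusted p = 7.4e-13). Male was below both minor libraries, with male minus minor at -2.65 (adjusted p = 0.0082).

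Against male, CFLOG009872.1 was at 300 and 745.7 RPKM in instar 1 larva, 1065 and 555.5 in instar 4 larva and 0 in male (9.24 ± 0.82, adjusted p = 4.2e-08), and minor held 0 and 0.034. Larvae were at least 6509-fold above 3 reads in male. CFLOG001253.2 differed within larvae, with 24.8 and 481.1 RPKM in instar 1 larva and 4859 and 2641 in instar 4 larva, against 0.421 in male and 0.952 and 1.91 in minor (8.8 ± 1.11, adjusted p = 6e-06). Of the genes lower than in male, CFLOG006008.2 was at 0.0458 to 0.569 RPKM in larvae, 298.7 in male and 209.7 and 1008 in minor (-7.85 ± 0.58, adjusted p = 3.4e-09). CFLOG004940.1 was at 0.195 to 0.67 RPKM in larvae, 329.6 in male and 2.06 and 2.12 in minor (-7.83 ± 0.56, adjusted p = 1.9e-09), so only male of the 7 libraries was high.

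Over all genes lower in larvae on both scales, 115 of 1474 (7.8%) were higher in male than in minor and 82 (5.56%) lower. Over all 10507 genes these numbers were 504 (4.8%) and 104 (0.99%). Of the genes higher in larvae 47 (2.77%) were higher and 6 (0.353%) lower in male. Most genes lower in larvae were therefore not called different between male and minor, which does not show that they were alike.

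**Figure D5:**
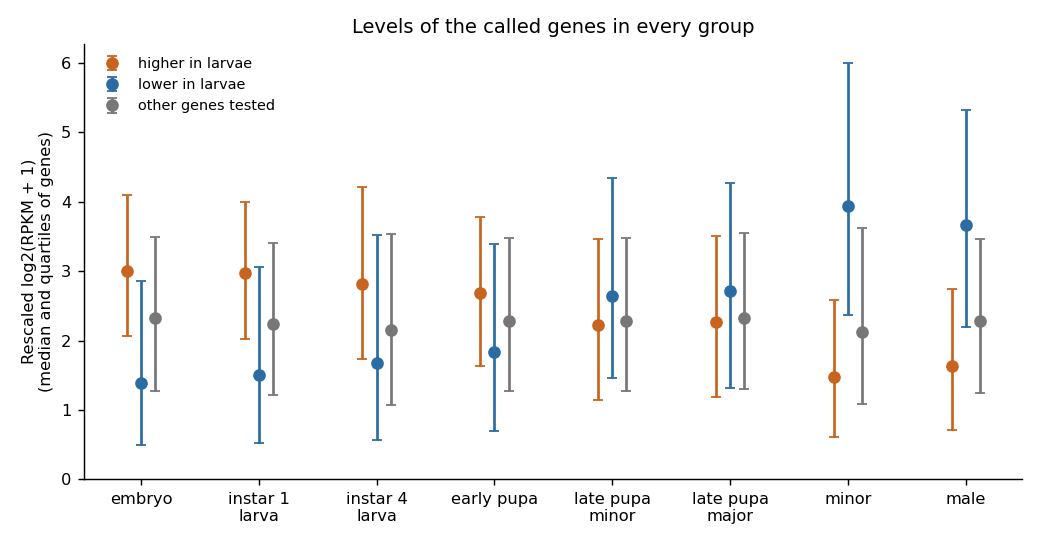
Rescaled log2(RPKM + 1) in the 8 groups (horizontal axis, in order of development with the adults last) for genes called higher in larvae, called lower, and the other genes tested; points are medians over genes and bars run from the lower to the upper quartile. Genes higher in larvae have a median of 3.01 in embryo, 2.68 in early pupa, 2.23 and 2.27 in late pupae and 1.47 in minor, and genes lower in larvae have 1.39, 1.84, 2.65, 2.72 and 3.94.

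Levels in embryo and pupae, which the comparison did not use, placed the called genes along development. After rescaling, the embryo mean lay nearer the larval than the adult mean for 1379 of 1698 genes higher in larvae (81.2%) and 1421 of 1474 lower (96.4%), against 75.7% of all 10807 genes tested. On a line from the adult mean at 0 to the larval mean at 1, the median embryo position was 1.07 for genes higher and 1.1 for genes lower in larvae. Early pupa lay nearer larvae for 65.7% and 85.5% of the genes, with median positions of 0.78 and 0.97, against 64.8% of all genes. Late pupa minor lay nearer larvae for 44.3% of the genes higher in larvae and 55.9% of the genes lower, with positions of 0.41 and 0.57, and late pupa major for 44.6% and 57.2%, with positions of 0.44 and 0.62. All genes were at 51.4% and 51.9% there.

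On the deposited scale the order of the stages was the same for genes higher in larvae, with positions of 1.59 in embryo, 0.61 in early pupa and 0.06 and 0.11 in late pupae. For genes lower in larvae they were 0.92, 1.02, 0.86 and 0.87, so on that scale late pupae still lay near the larvae. After rescaling, both late pupa libraries lay above every larval library for 52% of the genes lower in larvae in minor and 53% in major, and on the deposited scale for 26.3% and 30.7%. The same share over all genes tested was not computed, and these genes were chosen as low in larvae. These shares therefore only compare the scales and show nothing particular to these genes. Where the late pupae lay between larvae and adults thus depended on the scale. For early pupa the deposited scale gave 56.9% of the genes higher and 88% of the genes lower in larvae as nearer larvae, against 60.1% of all genes. The share of the genes higher in larvae was thus near that of all genes on both scales. For embryo the deposited shares were 93.1% and 80.3%, against 74.9%, so which set was more often nearer larvae turned with the scale. For late pupa minor they were 19.6% and 73.1%, against 41.5%, and for late pupa major 22.1% and 71.8%, against 42.4%.

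The 95% interval of the difference between larvae and adults lay within 1 log2 unit of 0 on both scales for 2983 of 10507 genes (28.4%), with a median level of 2.63 RPKM over the 7 libraries. The deposited scale alone gave 3479 of 10807 (32.2%) and the rescaled 4998 of 10630 (47%). At low levels the scale itself keeps differences small. The most abundant of these genes was CFLOG007370.2, with 2505 and 2706 RPKM in instar 1 larva, 755.5 and 2015 in instar 4 larva, 1808 and 2009 in minor and 1306 in male. Its log2 difference was 0.09 (interval -0.59 to 0.78) and -0.14 rescaled, although its instars differed on the deposited scale (-1.08, adjusted p = 0.044; 0.34 and 0.69 rescaled). CFLOG005630.1 was at 1831 and 1368 RPKM in instar 1 larva, 707.3 and 2366 in instar 4 larva, 1213 and 1784 in minor and 1023 in male (log2 difference 0.13). With instar 4 larva replicate 1 and minor replicate 2 left out, an alternative chosen after seeing the data, both were called higher in larvae, by 0.64 (adjusted p = 0.034) and 0.7 (adjusted p = 0.037).

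Few genes were present on one side and listed at 0 throughout the other. At 1 RPKM or more in all 4 larval libraries and at 0 in all 3 adult libraries were 8 genes, and the reverse held for 14 genes. All 8 larval genes reached 1 RPKM in an embryo or pupa library. Of the 14 adult genes 6 did and 8 did not. CFLOG021899.1 had the highest larval mean of the 8, with 57.6 and 31.6 RPKM in instar 1 larva, 494.8 and 1558 in instar 4 larva and 0 in all adults, at least 2199-fold above 3 reads. Instar 4 minus instar 1 was 4.33 (limma, adjusted p = 0.0004), and 5.72 rescaled (adjusted p = 0.00076). It was higher still in early pupa, at 6596 and 6566 RPKM.

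Gene length, which enters RPKM as a divisor and so is not independent of the values compared, differed between the sets. Lengths recovered from the read steps, which are mostly coding lengths (90.6% were multiples of 3), had a median of 1407 nt for genes higher in larvae (1579 of 1698 with a length) and 873 nt for genes lower in larvae (1363 of 1474), against 1123 nt over all genes tested. The quartiles were 826 and 2235 nt for genes higher and 450 and 1516 nt for genes lower in larvae. IDs with the prefix XLOC, 327 of the genes tested, were called higher in larvae in 18.7% and lower in 16.2% of cases, with no test of these shares. For the IDs with the prefix CFLOG the shares were 14.8% and 14.8% where the ID ends in 1, and 16.1% and 12.8% where it ends in 2.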

How the data were processed

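Libraries of poly(A) RNA from whole bodies were strand-specific (dUTP), per the labels' protocols, and STAR 2.5.0b and DESeq2 are named without a role in the submitters' processing notes. Build, annotation and counting were not given in the sources used here. Deposited by the authors was RPKM for 18979 genes in 15 libraries, and 0 columns were without a sample. Read totals and gene lengths (13701 genes) were recovered from steps of the values, as whole reads within 0.05. Floors are 3 reads per library and cover counting error only. No count test was run. A gene's reads divided between near-identical copies cannot be looked up here.

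Values as log2(RPKM + 1) of all 15 libraries were fitted with 1 term per group (limma 3.58.1, R 4.3.3, trended eBayes, two-sided). Genes needed 1 RPKM or more in 2 libraries or more, and p-values were Benjamini-Hochberg adjusted over all of them. Larvae are the mean of 4 libraries, adults of 3. SEs are limma's. Rescaled values were divided by median ratios over 9990 genes. The limma fit was tested on simulated data with known changes. No repeated deposit was found: on recovered reads the chi-square per gene had a median of 4.14 in instar 1 larva, 8.83 in instar 4 larva and 8.6 in minor. Genes are named by rule: in each of 5 comparisons at most 2 IDs higher and 2 lower, of the largest difference, called on both scales, without overlap and not named before, then leading genes, the 2 most abundant with an interval inside 1 log2 unit, and the top gene of each list at 0 on one side. The comparison, rules and tests were chosen with earlier results of these data known. Alternatives covered scaling, pseudocount, filter, libraries, weights, replicate number and single libraries.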

Additional observations from a re-analysis of the deposited data

Results flagged for a closer look

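The RPKM total of instar 4 larva replicate 1 (204206) stood apart from those of the other 3 larval libraries (390039 to 402812), with a gap of 0.936 of the whole range. CFLOG022348.1 was above 0 in 1 larval library only, so its gap was the whole range (1), from 1 read. For normally distributed values, chance flags about 1 in 20 such groups. That rate does not hold for CFLOG022348.1, since a gene above 0 in only 1 of the larval libraries is always flagged.

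For 4 named genes the difference from adults changed between the instars on both scales. Instar 4 minus instar 1 was 4.43 for CFLOG008700.2, 5.01 for CFLOG001253.2 and 4.33 for CFLOG021899.1, all higher in instar 4. CFLOG006752.2 was lower in instar 4 (-3.15) and differed between male and minor by -11.02. Between male and minor the difference from larvae also changed for CFLOG023792.1 (-9.7), CFLOG022348.1 (-2.65), CFLOG000609.2 (4.84), CFLOG002444.1 (2.45) and CFLOG004940.1 (6.74), with the 1 male library on one side. These differences were tested in limma across all genes.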

How the results depend on the processing

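The 20 genes named by size were chosen as called on both scales without overlap, so passing the rescaled alternative was fixed by rule. Leaving out a library or changing the weights also could not reverse their direction. Their direction held in all 304 alternatives and the call in 303. The exception was CFLOG006752.2 in instar 4 larva with larvae and adults as 2 groups. CFLOG001312.1 and CFLOG021899.1 kept theirs in 18 of 18. The interval stayed inside 1 log2 unit in 13 of 18 for CFLOG007370.2 (differences of -0.14 to 0.64) and in 10 of 18 for CFLOG005630.1 (-0.11 to 0.7). Counts moved more. With larvae and adults as 2 groups, 1015 genes were called (406 higher, 609 lower), 1967 for instar 1 larva, 333 for instar 4 larva, 735 against minor and 464 against male. Rescaling by median ratios gave 2487 genes lower in larvae and 3374 without overlap, and equal RPKM totals, an alternative chosen after seeing the data, gave 3260 against male. Leaving out 1 library at a time gave 865 to 3733 genes higher in larvae, 3102 to 5856 called for instar 1 larva, 1488 to 5596 against minor, 1829 to 3332 without overlap and 2199 to 3273 with an interval inside 1 log2 unit. Where that left 1 library in a group, it was assumed to vary like the other groups. The cause of these shifts was not tested.

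With the replicate number as a replicate block 3282 genes were called, 1866 higher and 1416 lower, with 5248 for instar 1 larva, 2168 for instar 4 larva, 3690 against minor and 1779 against male. Deviations of samples with the same number correlated at -0.36 to 0.23 over 21 pairs of groups. The labels do not state what the number stands for, and whether such samples share more than it was not tested. Depth limits levels under about 3 reads.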

Other observations

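Of the genes called higher in larvae, 9 had a larval mean of at least 1000 RPKM and stood under 10 RPKM in every adult library, a rule chosen after their values were seen. Their median level was 0.349% and 0.356% of the larval mean in early pupa, 0.215% and 0.153% in late pupa minor, and 0.15% in late pupa major replicate 1, but 0.00277% in late pupa major replicate 2. In adults it was 0.0152%, 0.0081% and 0.0229%. Single genes in early pupa ran from 0.139% to 270% in replicate 1 and from 0.219% to 202% in replicate 2. Not all of them were low there, and CFLOG008700.2 stood at 4317 and 3221 RPKM. By the median, late pupa major replicate 2 thus lay apart from the 3 other late pupa libraries, and on the adult side of them. CFLOG008700.2 did not follow this. It was at 13.5 RPKM there, against 25.4 in late pupa major replicate 1 and 13.3 and 16.6 in late pupa minor. For the transcripts that were low in the other pupa libraries, whether these levels are RNA of the pupae or reads carried over between libraries was not tested. For CFLOG000597.1 the late pupa libraries held 39.1 and 33.9 RPKM in minor and 27.4 and 0 in major.

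Genes with neighbouring ID numbers were often called together. Of the 1447 CFLOG genes higher in larvae with a tested neighbour in number, 496 (34.3%) had a neighbour that was also higher, while 23.5% of all 9123 such genes lay beside a gene higher in larvae. For genes lower in larvae it was 438 of 1204 (36.4%) against 18.9%. The longest runs of consecutive numbers were 6 and 5. The sources used here do not state what order the numbers follow, and the pattern was not tested.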
